A study of Mus musculus with 6 samples.

Results

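The genes described here are 35 genes known for their use by T cells and natural killer (NK) cells, followed in the bone marrow of anemic mice 6 h after an injection of recombinant human erythropoietin (rHuEPO). They were chosen by name, and probes were matched to them through RefSeq accessions, with the brightest probe standing for a gene. A probe matched 34 of the 35, and 28 were bright enough to test, of 14853 genes tested in all. None of the 28 passed the test between rHuEPO and control, and the side on which most of them lay changed when 1 control array was left out and when the background was corrected in another way.

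T cells recognise antigen through a receptor whose CD3 and zeta chains carry the signal to the kinases Lck and Zap70 and to the adaptor Lat. NK cells lack that receptor, read other cells through activating and inhibitory lectin-like receptors, and share with CD8 T cells the perforin and granzymes that kill a target. Both cell types are a minority in marrow, where NK cells develop and where some mature T cells reside, while T cell precursors leave for the thymus. Erythropoietin acts mainly on erythroid progenitors, through its receptor and the JAK2 and STAT5 proteins, and the interleukin 2 receptor beta chain on T and NK cells also signals through STAT5.

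Marrow cells from the femur were profiled on 6 Agilent arrays, 1 per sample. All samples came from male ISAM mice, genotype ISAM (Epo-/-::3.3K-Epo3'-Tg458), of mixed strain and 10 weeks old. Their own Epo gene is deleted and an Epo transgene takes its place, with too little hormone made in the adult, so every group, controls included, was deficient, and no wild-type marrow was analysed here. The rHuEPO arm had 3 samples taken 6 h after 3000 U/kg was given into the peritoneal cavity. The control arm had 2 samples taken 6 h after phosphate-buffered saline (PBS) and 1 untreated sample. Replicates are numbered in the labels with no animal named, so p-values measure the spread between these samples, which may be technical, and the number of arrays limits the precision.

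The untreated array and rHuEPO replicate 1 were on slide 1, and the other 4 arrays were on slide 2, with slide and scan falling together. The 75th percentile signal of an array lay between 220.7 and 264.0. The share of gene spots called well above background was 46.2% to 46.6% after rHuEPO and 48.6% to 50.5% in controls. The median processed signal of negative control spots was 4.73 to 5.51 after rHuEPO and 3.74 to 4.03 in controls. The part of this background in the differences below was not tested. Levels below are log2 processed signals minus the array's 75th percentile, so that 0 is as bright as that percentile. The lowest level well above background was -3.59 to -3.38 on rHuEPO arrays and -3.84 to -3.73 on control arrays. Levels are compared between arrays, for 1 gene or for a sum or mean over a list. They are never read as 1 gene having more RNA than another.

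Promoters are shown for 4 members named in the results below, none of which passed between rHuEPO and control. Cd3d marks T cells, and Cd8a and Gzmb had rHuEPO arrays that all lay above the controls. Bcl11b differed between slides in a fit whose calls depended on single arrays and on the scaling. Each sequence is the 250 bases before the start site from RefSeq's table for GRCm38.p6, written 5′ to 3′ along the gene, with motif matches in capitals.
Cd3d (chr9:44981536-44981785, plus strand): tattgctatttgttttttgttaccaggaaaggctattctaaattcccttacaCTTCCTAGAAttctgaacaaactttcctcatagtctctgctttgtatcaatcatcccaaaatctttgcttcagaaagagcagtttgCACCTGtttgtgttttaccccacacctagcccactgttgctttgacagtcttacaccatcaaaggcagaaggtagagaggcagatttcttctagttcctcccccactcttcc
Cd8a (chr6:71373177-71373426, plus strand): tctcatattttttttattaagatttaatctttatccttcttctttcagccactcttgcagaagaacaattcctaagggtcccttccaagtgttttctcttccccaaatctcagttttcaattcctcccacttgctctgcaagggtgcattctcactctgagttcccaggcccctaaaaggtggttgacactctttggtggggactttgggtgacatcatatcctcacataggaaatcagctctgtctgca
Gzmb (chr14:56262335-56262584, minus strand): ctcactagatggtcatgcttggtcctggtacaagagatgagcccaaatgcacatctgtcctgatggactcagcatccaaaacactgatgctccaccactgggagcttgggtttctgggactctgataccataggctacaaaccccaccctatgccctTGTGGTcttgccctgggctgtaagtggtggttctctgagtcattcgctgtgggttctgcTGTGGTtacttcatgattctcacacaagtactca
Bcl11b (chr12:108003415-108003664, minus strand): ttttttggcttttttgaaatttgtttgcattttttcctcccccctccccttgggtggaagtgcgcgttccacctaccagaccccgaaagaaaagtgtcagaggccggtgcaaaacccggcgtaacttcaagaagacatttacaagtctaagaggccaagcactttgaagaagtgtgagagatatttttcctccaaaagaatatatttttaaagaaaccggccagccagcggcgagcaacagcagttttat

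Motifs were searched on both strands in windows of 250 bases before and 50 after each start. The letters were TTCNNNGAA for STAT, AGGAAG for ETS, TGTGGT for RUNX, GGTGTGA for T-box, AGATAA for GATA and CAGGTG for the E-box. The table held 32 windows for 25 of the 35 members, some genes having several that overlap or share bases. In Cd3d the capitals mark a STAT match at -197 to -189 that overlaps an ETS match at -198 to -193, and an E-box at -112 to -107. In Gzmb they mark RUNX matches at -93 to -88 and -34 to -29. The printed bases of Cd8a and Bcl11b hold none of the 6 letter strings.

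The E-box letters were in 50% of the member windows and in 20.2% of all 32851 windows. The RUNX letters were in 40.6% against 16.8%, the ETS letters in 50% against 35.4% and the T-box letters in 9.38% against 3.98%. The STAT letters were in 5 of 32 member windows (15.6%) against 8.3% of all, in Cd3d, Gzmb, Ifng, Il18r1 and Nkg7. The GATA letters were in 1 member window (3.12%) against 11.2%, that of Cd3g. These are counts of letters and not of bound sites. The 10 members with no window in the table were Cd4, Cd8b1, Cd2, Cd28, Thy1, Cd69, Skap1, Il2rb, Klrd1 and Ccl5.

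RNA of T cell markers and of some NK cell markers was measurable in this marrow, and bulk arrays do not show which cells it came from. The T cell markers Cd3d, Cd3e, Cd3g, Lck and Cd8a were well above background on all 6 arrays, as were the NK cell markers Klrb1c, Klrd1, Gzma and Prf1, although cytotoxic T cells also use Gzma and Prf1. Cd4, the co-receptor of helper T cells, and Cd28, a costimulatory receptor, were not well above background on any array, and no probe matched Cd8b1. Eomes, a transcription factor of NK cells and memory CD8 T cells, and the NK receptors Klrk1 and Ncr1 were well above background on the untreated array only. Gzmk, a granzyme, was so on PBS replicate 1 only. The 28 genes tested were well above background on all 6 arrays.

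Most members read slightly higher after rHuEPO, within the spread between arrays. The difference (rHuEPO minus control, log2) was above 0 for 24 of 28 members (85.7%), against 47.3% of all genes tested, with a median of 0.10 against -0.015. It ran from -0.14 for Klrb1c to 0.54 for Lat. In limma with Benjamini-Hochberg adjustment over all genes, 0 of 28 members passed 0.05, where 10 of 14853 genes (0.0673%) did. No member had an unadjusted p under 0.05 (736 of all genes did), and the smallest adjusted p among members was 0.9999. The rHuEPO arrays all lay above the control arrays for 2 of 28 members, Cd8a and Gzmb, against 5.01% of all genes, and all below for 0 of 28, against 5.39%. Marrow was measured in bulk, so fewer cells of a type and less RNA per cell cannot be told apart.

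The side was not stable. Without PBS replicate 1, 13 of 28 members lay above 0, with a median of -0.017, and 53.3% of all genes did, with a median of 0.023. PBS replicate 1 was the lowest of the 6 arrays for 17 of 28 members (60.7%), against 16.1% of all genes. Leaving out each of the other arrays gave 17 to 24 members above 0, with medians from 0.055 without rHuEPO replicate 1 to 0.28 without the untreated array. With all 6 arrays and normexp background correction, 13 of 28 lay above 0, with a median of -0.030, against 54.5% and 0.070 over all genes. The count of 10 genes over the whole table became 6 when PBS replicate 2 was left out, 3 when the untreated array or rHuEPO replicate 1 was, and 1 when any of the remaining 3 arrays was.

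**Figure D1:**
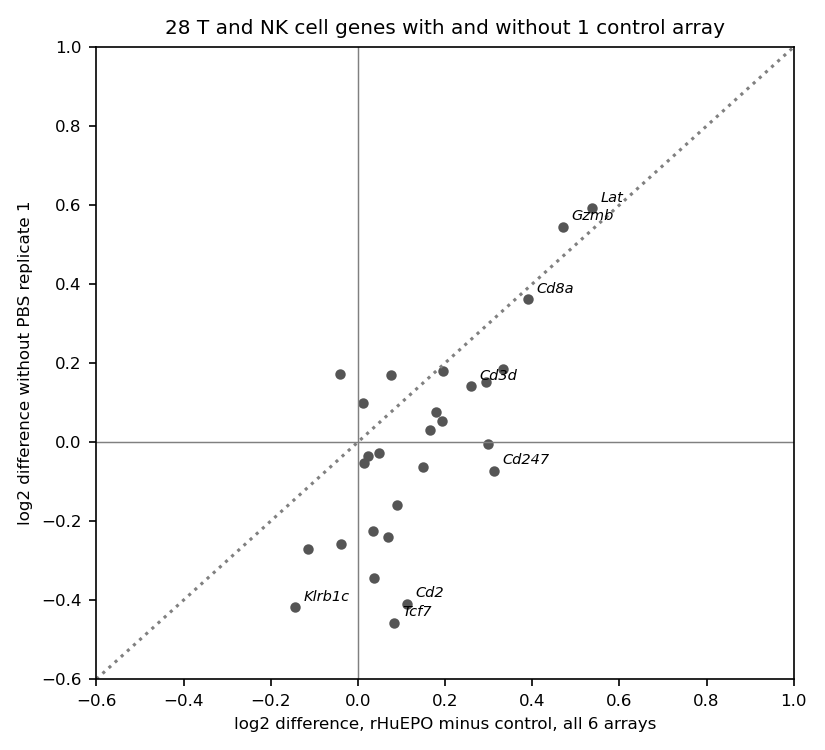
Log2 difference between rHuEPO and control arrays for each of the 28 members tested, with all 6 arrays (x axis) and without PBS replicate 1 (y axis). The dotted line marks equal values. Points right of 0 number 24 and points above 0 number 13, and Cd8a, Gzmb and Lat lie near the line.

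B lineage markers moved with the same array. All 8 of the B lineage genes tested, of 9 listed, were lower on PBS replicate 1 than on PBS replicate 2, with a median difference of -2.39, and 23 of 28 T and NK cell members (82.1%) were too, with a median of -0.33, against 46.6% of all genes. The 8 genes were Cd79a, Cd79b, Ms4a1, Pax5, Ebf1, Vpreb1, Rag1 and Blnk, of which Pax5 was well above background on 3 arrays and the others on all 6. Their summed level, in multiples of the 75th percentile signal, ranged from 45.5 to 193.9 over the control arrays and from 85.9 to 106.8 over the rHuEPO arrays. Other T cell genes, from a list described below, were lower on PBS replicate 1 for 18 of 28 (64.3%), with a median of -0.12. Other NK and cytotoxic cell genes were lower there for 12 of 27 (44.4%), with a median of 0.20. That list was not uniform. Fcer1g, Tyrobp, Hcst, Nfil3, Stat4 and Il12rb1 were highest of all arrays on PBS replicate 1. Ccl3, Ccl4, Cd7, Ctsw, Gzmm, Il2rg, Klra8, Klra9, Sh2d1a and Txk were lowest there. Summed over the 28 members, the level was 82.7 on PBS replicate 1, 77.0 on PBS replicate 2 and 79.3 on the untreated array. That sum rests mostly on the brightest members, Nkg7 and Ccl5 (log2 levels of 5.28 and 4.41 on PBS replicate 1), and Nkg7 was highest there. With every member weighted equally, the mean log2 deviation was -0.38 on PBS replicate 1, -0.017 on PBS replicate 2 and 0.18 on the untreated array. Erythroid markers were lower on PBS replicate 1 for 9 of 10 genes, with a median of -0.68, and neutrophil markers for 0 of 9, with a median of 0.42. The part of these cell types in the T and NK cell result was not tested.

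**Figure D2:**
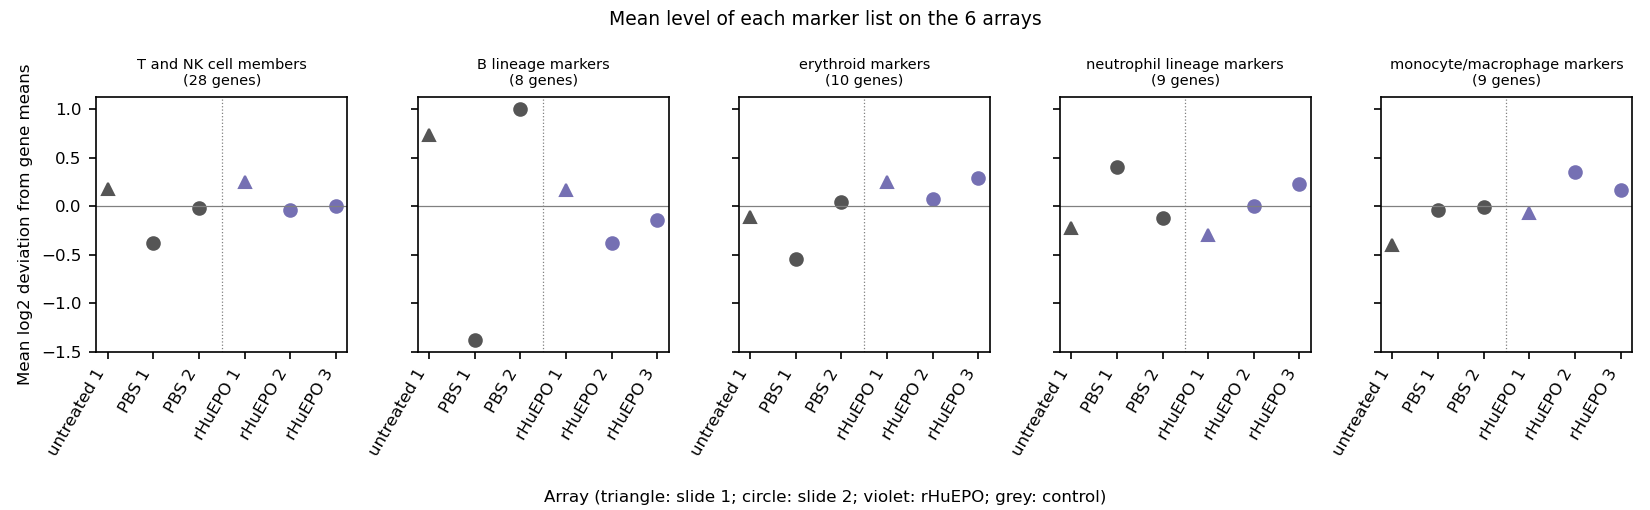
Mean log2 deviation of each list's tested genes from their own means over the 6 arrays, 1 point per array (triangles, slide 1; circles, slide 2; violet, rHuEPO; grey, control). T and NK cell genes and B lineage markers were lowest on PBS replicate 1, at -0.38 and -1.38, and neutrophil markers were highest there, at 0.41.

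Every antigen receptor or co-receptor chain tested read slightly higher on average after rHuEPO, within the spread between arrays. All 5 tested of 7 listed (Cd3d, Cd3e, Cd3g, Cd247 and Cd8a) lay above 0, with a median of 0.26, and none passed. Without PBS replicate 1, 3 of 5 lay above 0, and with normexp 2 of 5.

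Cd8a, the alpha chain of the CD8 co-receptor of cytotoxic T cells, read -0.37 on the untreated array, -0.62 and -0.70 on the PBS arrays and -0.20, -0.27 and -0.04 on the rHuEPO arrays. The arms did not overlap, the untreated array being nearest to the rHuEPO arrays. The difference was 0.39 ± 0.18 (SE, 3 against 3 arrays; 1.31-fold), with an unadjusted p of 0.060 and an adjusted p of 0.9999 in limma. It was 0.17 within slide 1 and 0.50 within slide 2. With slide as a block the unadjusted p was 0.034 and the adjusted p 0.40, in a fit where 11 genes of the table passed (0.0741%). Its other 2 probes gave 0.41, with arms that overlapped, and 0.54, with arms that did not.

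Cd3d, a chain of the CD3 complex found on every T cell that carries an antigen receptor, read 2.09 untreated, 1.51 and 1.64 with PBS and 2.18, 1.94 and 1.90 with rHuEPO. The untreated array lay among the rHuEPO arrays, so the arms overlapped, and both PBS arrays were the lowest. The difference was 0.26 ± 0.21 over all arrays, 0.098 within slide 1 and 0.34 within slide 2. It was 0.14 without PBS replicate 1, 0.17 without rHuEPO replicate 1 and 0.43 without the untreated array. Cd3g and Cd3e, other chains of the complex, differed by 0.19 ± 0.21 and 0.014 ± 0.23. Cd247, the zeta chain, differed by 0.31 ± 0.35, its PBS replicate 1 value of -2.66 being the lowest of a range that otherwise ran from -1.79 to -1.21. Without that array Cd247 stood at -0.072.

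**Figure D3:**
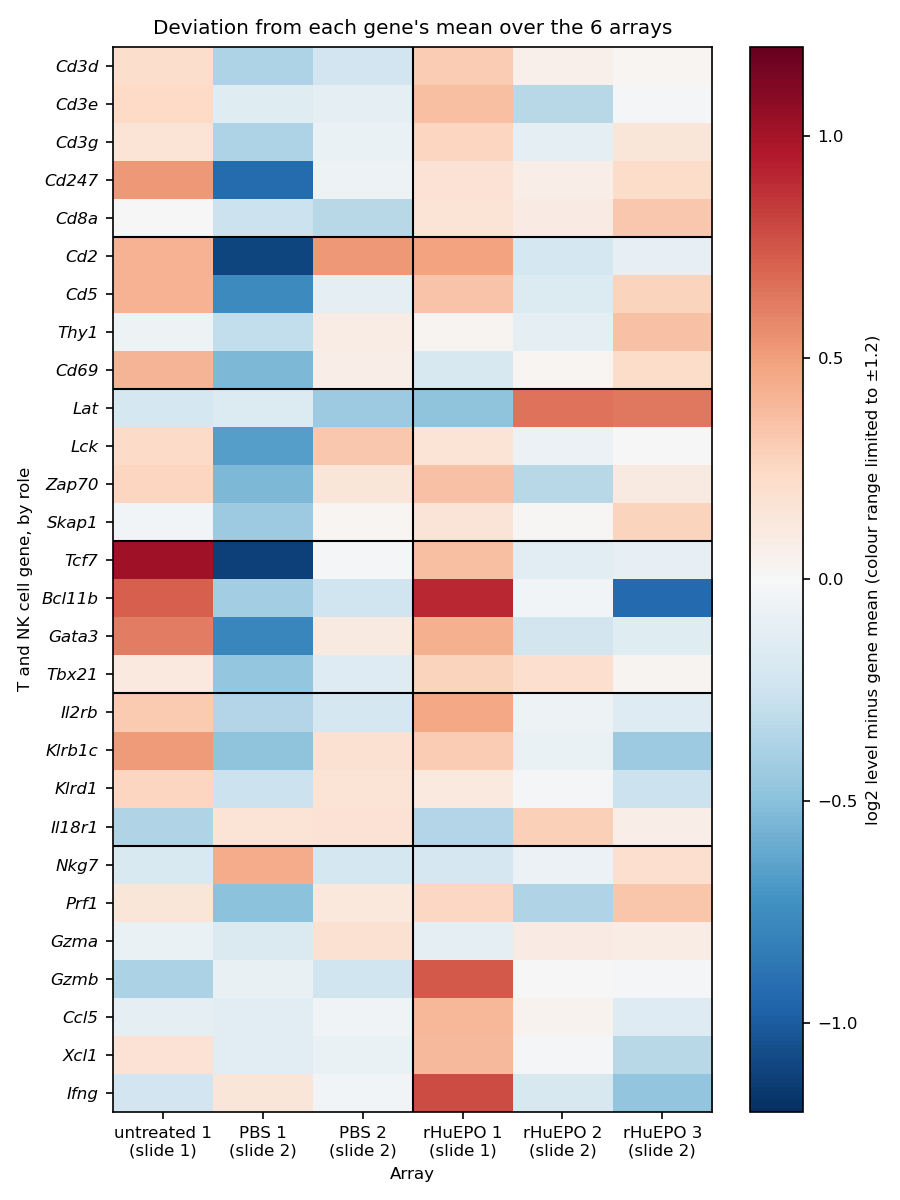
Level of the 28 tested members on each array, as log2 deviation from the gene's mean over the 6 arrays (rows, genes in 6 role groups; columns, arrays; red above and blue below the mean). The column of PBS replicate 1 holds the lowest value of 17 genes, and the columns of slide 1 are mostly red.

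The 4 T cell surface molecules tested of 5 listed (Cd2, Cd5, Thy1 and Cd69) lay above 0 in all 4 cases, with a median of 0.15, and without PBS replicate 1 in 1 case. Cd5, an inhibitor of T cell receptor signalling, read 0.72 untreated, -0.46 and 0.19 with PBS and 0.64, 0.13 and 0.57 with rHuEPO. The untreated array was the highest and a PBS array the lowest, so the control arm enclosed the rHuEPO arm. The difference was 0.30 ± 0.32, and it was -0.073 within slide 1 and -0.0058 without PBS replicate 1. Thy1, a surface glycoprotein of T cells that some stromal and progenitor cells also carry, read 2.46 untreated, 2.23 and 2.61 with PBS and 2.55, 2.41 and 2.88 with rHuEPO. Its arms overlapped, and the difference of 0.18 ± 0.20 had the same sign within both slides (0.089 and 0.22). It was 0.046 without rHuEPO replicate 3 and 0.076 without PBS replicate 1. The second probe of Thy1 gave -0.051 within slide 1 and 0.47 within slide 2. Cd2, an adhesion molecule, differed by 0.11 ± 0.45 and Cd69, an early activation marker, by 0.034 ± 0.27.

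All 4 proximal signalling genes were tested and lay above 0, with a median of 0.19, and without PBS replicate 1 2 of them did. Lat, the adaptor that the kinase Zap70 phosphorylates, gave the highest difference of any member. It read -2.05 untreated, -2.01 and -2.28 with PBS and -2.33, -1.19 and -1.21 with rHuEPO. The pair of rHuEPO arrays on slide 2 stood apart from the other 4, and the rHuEPO array on slide 1 was the lowest of all. The difference was 0.54 ± 0.32 (1.45-fold; unadjusted p of 0.14), made of -0.27 within slide 1 and 0.94 within slide 2, and with normexp it was -0.069. Skap1, an adaptor in integrin activation by the T cell receptor, read -0.47 untreated, -0.87 and -0.41 with PBS and -0.28, -0.43 and -0.17 with rHuEPO. Its arms overlapped, and the difference was 0.29 ± 0.19, with the same sign within both slides (0.19 and 0.34) and 0.15 without PBS replicate 1. Lck and Zap70, the kinases that start the cascade, differed by 0.070 ± 0.28 and 0.089 ± 0.28.

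**Figure D4:**
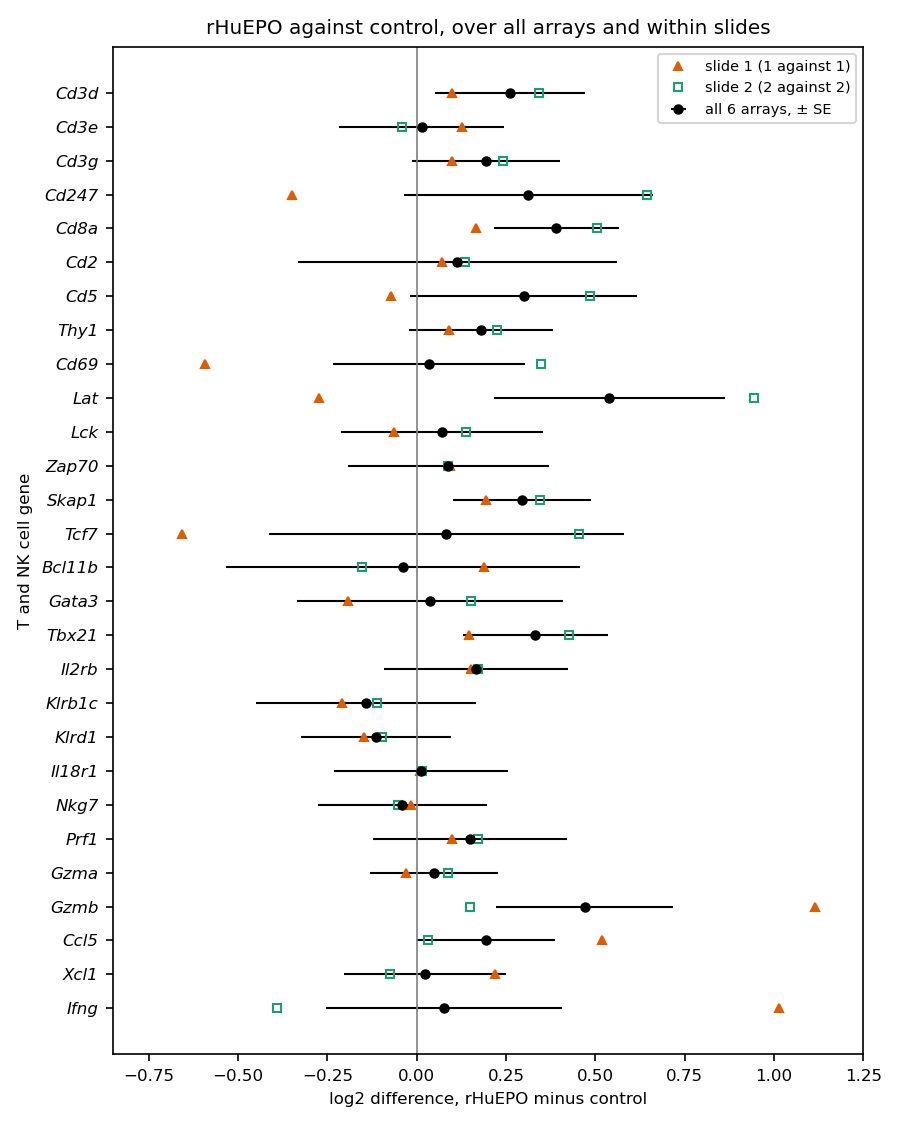
Log2 difference between rHuEPO and control for each of the 28 members over all 6 arrays (black points; bars are the SE from limma), within slide 1 (triangles, 1 array against 1) and within slide 2 (squares, 2 against 2). Within slide 1, 17 of 28 lie above 0 and within slide 2 21 of 28, and 16 have the same sign in both.

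Among the transcription factors 3 of 4 tested of 5 listed lay above 0, with a median of 0.060, and without PBS replicate 1 this was 1 of 4, with a median of -0.30. Tbx21 (T-bet), which directs the type 1 program of T cells and the maturation of NK cells, read -1.08 untreated, -1.66 and -1.36 with PBS and -0.93, -1.0 and -1.17 with rHuEPO. The untreated array fell between rHuEPO replicates 2 and 3, so the arms overlapped. The difference was 0.33 ± 0.20 (unadjusted p of 0.14) and lay above 0 within both slides (0.15 and 0.43). It was 0.18 without PBS replicate 1 and -0.030 with normexp. Tcf7, the TCF1 factor of naive and early T lineage cells, read -0.87 untreated, -3.01 and -1.91 with PBS and -1.53, -2.02 and -1.99 with rHuEPO. The control arm spanned the whole range, and the difference of 0.083 ± 0.50 was -0.66 within slide 1 and 0.45 within slide 2. It was -0.46 without PBS replicate 1 and -0.076 without rHuEPO replicate 1. Gata3, the factor of type 2 helper cells, differed by 0.038 ± 0.37 and Bcl11b, a factor of T lineage commitment, by -0.039 ± 0.50.

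The NK and cytokine receptors lay on both sides of 0. Of 4 tested of 6 listed, Il2rb and Il18r1 were above and Klrb1c and Klrd1 below, with a median of -0.051. Each of the 4 had the same sign within both slides. Il2rb, the beta chain shared by the receptors of interleukins 2 and 15, read 2.06 untreated, 1.39 and 1.53 with PBS and 2.21, 1.68 and 1.58 with rHuEPO. Both arrays of slide 1 stood above the other 4, in each arm. The difference was 0.17 ± 0.26, and it was -0.026 without rHuEPO replicate 1. Klrd1 (CD94), which pairs with NKG2 receptors, read 1.50 untreated, 0.98 and 1.41 with PBS and 1.36, 1.22 and 0.98 with rHuEPO. Its arms overlapped, and the difference was -0.11 ± 0.21, turning to 0.20 with normexp. Klrb1c (NK1.1), an activating NK receptor, differed by -0.14 ± 0.31 and Il18r1, a chain of the interleukin 18 receptor, by 0.013 ± 0.24.

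Of the cytotoxic effectors and secreted factors 6 of 7 tested of 8 listed lay above 0, with a median of 0.076, and without PBS replicate 1 this was 4 of 7, with a median of 0.17. Gzmb (granzyme B), a protease of activated killer cells, read -1.89 untreated, -1.60 and -1.75 with PBS and -0.77, -1.52 and -1.54 with rHuEPO. The arms did not overlap, but rHuEPO replicates 2 and 3 lay close to PBS replicate 1, and rHuEPO replicate 1 stood apart. The difference was 0.47 ± 0.25 (1.39-fold; unadjusted p of 0.098), made of 1.11 within slide 1 and 0.15 within slide 2. It was 0.22 without rHuEPO replicate 1 and -0.060 with normexp. Ifng, the type 1 cytokine of T and NK cells, was also highest on rHuEPO replicate 1, at -1.13 against -2.38 to -1.76 on the other 5 arrays. Its difference of 0.076 ± 0.33 was 1.01 within slide 1 and -0.39 within slide 2, and its second probe gave 0.80 and -0.29.

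Ccl5, a chemokine of memory T and NK cells, read 4.42 untreated, 4.41 and 4.50 with PBS and 4.94, 4.59 and 4.39 with rHuEPO. The control arrays lay close together, rHuEPO replicate 1 was the highest and rHuEPO replicate 3 the lowest of the 6. The difference was 0.19 ± 0.19, and 0.045 without rHuEPO replicate 1. The remaining effectors were perforin (Prf1, 0.15 ± 0.27), granzyme A (Gzma, 0.048 ± 0.18), the chemokine Xcl1 (0.023 ± 0.23) and Nkg7, a protein of cytotoxic granules (-0.040 ± 0.24). Nkg7 was the member for which PBS replicate 1 was the highest array, at 5.28 against 4.63 to 5.04 on the other 5, and its second probe had the same highest array. The neutrophil markers tested, such as Mpo, Elane and Prtn3, were also highest on PBS replicate 1, except S100a9. Whether other marrow cells gave part of the Nkg7 signal was not tested. Cd8a, Thy1, Nkg7 and Ifng were the 4 members with more than 1 probe bright enough to test. The probes of each agreed in sign over all 6 arrays, but those of Thy1 did not within slide 1.

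Against the PBS arrays alone 24 of 28 members lay above 0, against 40.1% of all genes, with a median of 0.28. None of the 28 passed in limma, where 3 genes of the table (0.0202%) did, and 1 member, Cd8a (0.49 ± 0.19, unadjusted p of 0.042), had an unadjusted p under 0.05. The untreated array lay above the mean of the PBS arrays for 22 of 28 members, against 40.8% of all genes, with a median of 0.38. No gene passed in that comparison (0 of 14853, 0%), in which 804 genes and 2 members, Tcf7 (1.59 ± 0.48, unadjusted p of 0.014) and Cd247 (1.01 ± 0.38, unadjusted p of 0.035), had an unadjusted p under 0.05 in limma. The untreated array is alone in its group, is assumed to vary like the others and was on another slide than both PBS arrays, so the injection and the slide cannot be told apart there.

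More genes were separated by slide than by arm, over the whole table as among the members. A fit with arm and slide was chosen after seeing the data. In it 23 of 28 members (82.1%) were higher on slide 1, against 39.6% of all genes, with a median of 0.31 against -0.11. Of other T cell genes, from a list described below, 17 of 28 (60.7%) were, with a median of 0.17. Of other NK and cytotoxic cell genes 16 of 27 (59.3%) were, with a median of 0.13. All 8 B lineage genes were higher on slide 1, with a median of 0.67. Both slide 1 arrays lay above all 4 slide 2 arrays for 11 of 28 members, against 13.6% of all genes, and below them for 1 member, Il18r1, against 28.2%. The 11 were Cd3d, Cd3e, Cd3g, Cd5, Zap70, Tcf7, Bcl11b, Gata3, Il2rb, Klrb1c and Xcl1. In limma 2 of 28 members passed, Bcl11b at 1.22 ± 0.27 (adjusted p of 0.045) and Il2rb at 0.59 ± 0.13 (adjusted p of 0.045). In the same fit 10.6% of all genes passed, so calls among the members were not more frequent than over the table. Of the 1577 genes called, 510 were higher on slide 1.

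Bcl11b read -1.73 untreated and -1.54 on rHuEPO replicate 1, the slide 1 arrays, and -2.86, -2.69, -2.48 and -3.38 on the arrays of slide 2. The slides did not overlap. The calls between slides depended on single arrays and on the scaling. Quantile normalization kept Il2rb alone, median scaling called Bcl11b and Il18r1, and normexp called no gene of the table. Without PBS replicate 1 the calls were Gata3 and Il2rb among 2401 genes, and without PBS replicate 2 no member was called among 1521. Leaving out the untreated array, rHuEPO replicate 1, rHuEPO replicate 2 or rHuEPO replicate 3 left 1, 0, 3 and 4 genes and no member. Slide 1 held 1 array of each arm, and what else differed between the slides was not tested.

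The wider T and NK cell genes, from lists that hold no member, were split more evenly around 0 than the members. Of 38 other T cell genes 28 were tested, 14 lay above 0 and 0 passed, with a median of 0.0042. The smallest p was that of Prkcq, a kinase downstream of the T cell receptor (0.53 ± 0.23, unadjusted p of 0.054), which read 0.29 untreated, -0.10 and -0.16 with PBS and 0.22, 0.88 and 0.54 with rHuEPO. Its arms overlapped, and within slide 1 the difference was -0.073. The next were Cd6, a coreceptor related to Cd5 (0.27 ± 0.19), and Ubash3a, a regulator of receptor signalling (0.27 ± 0.19).

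Of 40 other NK and cytotoxic cell genes 27 were tested, 13 lay above 0 and 0 passed, with a median of -0.0054. Cd244a, the 2B4 receptor, differed by 0.77 ± 0.38, the chemokine Ccl3 by 0.53 ± 0.31 and Id2, a factor needed for NK cell development, by 0.25 ± 0.16, with arms that did not overlap for Id2. Of 18 cytokines and ligands that act on these cells 10 were tested, 7 lay above 0 and 0 passed, with a median of 0.068. Among them Cd274 (PD-L1) differed by 0.55 ± 0.34, Il15, a growth factor of NK cells, by -0.40 ± 0.28 and Cd86, a costimulatory ligand, by 0.28 ± 0.22. In these 3 lists no gene had an unadjusted p under 0.05 in that fit, while Cd244a did with slide as a block (0.0083) and Prkcq did against PBS (0.033), and neither passed after adjustment. No list of other marrow cell types had a gene that passed between the arms in limma, where Tfrc and Rhag (erythroid) and Tcf4 (plasmacytoid dendritic cell) had an unadjusted p under 0.05. Their medians were -0.17 over 8 B lineage genes, 0.0064 over 9 neutrophil genes, 0.36 over 9 monocyte and macrophage genes, 0.048 over 8 plasmacytoid dendritic cell genes, 0.39 over 10 erythroid genes and 0.019 over 6 stem and progenitor genes.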

How the data were processed

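Scanner files deposited by the authors hold processed and median intensity values per spot, per the file headers written by Agilent Feature Extraction 10.7.3.1 and background-subtracted by that software, with flags for spots well above background, outliers and saturation (0 gene spots). RNA was extracted with ISOGEN and labelled with Cy3, per the labels' protocols. The deposited value table holds log2 values. Set against the scanner values, it was scaled the same way as here and had each probe's median subtracted (median absolute difference of at most 0.0131), with column medians from -0.103 to 0.117, so no scale or direction stayed unknown.

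Here log2 processed signal minus the 75th percentile of an array's 43379 gene spots was used, without 1639 control spots. Spots flagged as outliers, 379 on any array, were left out only on the array that flagged them. They were kept when the percentile was taken. Of 41174 probes 26690 (64.8%) matched a symbol in a RefSeq table of GRCm38.p6, and 17 lacked a usable value. A probe was tested when well above background on at least 3 of 6 arrays. Correlations between arrays over genes tested ran from 0.964 to 0.991. Fits used R 4.3.3 and limma 3.58.1 with lmFit, eBayes and Benjamini-Hochberg adjustment (two-sided, threshold 0.05) and were tested on simulated data. Alternatives were other scalings, normexp with an offset of 50, other filters, the deposited table, all probes, blocks and each array left out. Normexp ran on median signals, since the files used here carry no mean signals.

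The members and lists were chosen with earlier results of these data known. Values on every array are given for members that pass, members whose arms do not overlap and the 2 members of each role with the smallest p, and for other lists the 3 genes with the smallest p are named. Bcl11b, Cd247, Ifng and Nkg7 were singled out after their values were seen. A listed marker gene of another cell type is not reported here.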

Additional observations from a re-analysis of the deposited data

How the results depend on the processing

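The count of members that passed was 0 under every scaling, filter, block and left-out array that was fitted. There were 216 alternative values of the 12 members whose levels are given array by array. Of these, 204 kept the sign and 12 did not, and the cause was not tested. Slide as a block, no filter and the filter on all 6 arrays left the differences of the 12 members unchanged. PBS as the only control gave the same differences as leaving out the untreated array. The 204 are therefore not separate checks of the sign. With normexp the values were -0.060 for Gzmb, -0.069 for Lat, -0.030 for Tbx21, -0.36 for Tcf7 and 0.20 for Klrd1, while others grew, to 0.70 for Ccl5, 0.62 for Thy1, 0.60 for Cd3d and 0.34 for Il2rb. Within slide 1 they were -0.27 for Lat, -0.66 for Tcf7 and -0.073 for Cd5. Over the arrays left out in turn, Tcf7 ran from -0.46 to 0.61, Cd5 from -0.0058 to 0.58 and Il2rb from -0.026 to 0.36. Members above 0 numbered 13 with normexp and 13 to 24 with each array left out, against 24 of 28. With quantile scaling they numbered 25 (45.7% of all genes) and with median scaling 26 (60.1%). With no filter 26 of 34 lay above 0 (61.4% of all genes), and their median of 0.086 was below the 0.0998 of all genes. Genes called between rHuEPO and control, 10 in the table, numbered 1 with normexp, 1 with no filter, 5 when all 6 arrays had to be well above background, 3 with PBS as the only control and 1 to 6 with each array left out. Against PBS, 3 genes became 1 with normexp, 1 with no filter and 1 with the filter on all 6 arrays. Untreated against PBS, 0 genes became 70 with no filter. PBS and rHuEPO share replicate numbers 1 and 2, and deviations of arrays with the same number correlated at -0.071 and -0.16. With only 2 PBS arrays, the deviation of 1 is that of the other with the sign turned. These values therefore cannot show whether samples with the same number belong together, which was not tested. With the replicate block 1 gene was called between rHuEPO and control and 6 between rHuEPO and PBS, and 23 of 28 members lay above 0, with a median of 0.19. The low end of the scale limits the 6 members that were too dim to test, for which no difference is given. It also limits Bcl11b, which read close to it on rHuEPO replicate 3.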
